A study of Mus musculus with 18 samples.

Results

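A set of 10 mouse genes that mark T cells or restrain them was followed across normal lung and lung tumours: the T cell receptor chain gene Cd3e, the coreceptor genes Cd4 and Cd8a, the regulatory T cell factor gene Foxp3, the inhibitory receptor genes Pdcd1, Ctla4, Lag3, Havcr2 and Klrc1, and the ligand gene Cd274. The genes were chosen by name. Each was read from the probe set (a group of short probes for a transcript) that carries its symbol alone and has the highest mean over all arrays. All 10 of 10 were found among 18193 genes measured this way, and none was left out by a filter on low values. The values are RMA levels on the log2 scale, so a difference of 1 is a doubling. Against control lung, Cd3e was lower in cobalt tumours and, close to the threshold and lost under several alternatives, in spontaneous tumours. Cd8a was lower in both by its chosen probe set, and was not called by 3 of its 5 probe sets. Havcr2 was higher in spontaneous tumours, and Klrc1 was high on 4 of the 12 tumour arrays and near its lowest levels on the other 14 arrays.

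The arrays came from B6C3F1/N mice of an inhalation study of cobalt metal dust, with 6 arrays of vehicle control lung, 6 of lung tumours that arose spontaneously and 6 of lung tumours from cobalt-exposed mice. The mice were 5 to 6 weeks old at the start, the aerosol held 0 to 5 mg/m3 of cobalt, and exposure ran 6 hours a day, 5 days a week, for up to 105 weeks. Genotype, sex, dose and tumour stage are not labelled per array. Nor is it labelled whether each array of a group is a mouse of its own, and a p-value here covers no more than the spread among these samples, which may be technical. Whole tumours were dissected from the surrounding lung, so an array holds epithelial, immune, vessel and connective tissue RNA together, and the controls are whole lung, not isolated epithelium. In such bulk samples fewer cells of a type and less RNA per cell cannot be told apart.

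A T cell recognises antigen through its receptor, whose signal passes through the CD3 chains, one of them encoded by Cd3e. CD4 and CD8 bind MHC class II and class I molecules and divide T cells into helper and killer lineages. Checkpoint receptors such as PD-1 (Pdcd1), CTLA-4, LAG-3, TIM-3 (Havcr2) and NKG2A (Klrc1) dampen T and natural killer (NK) cells, and PD-L1 (Cd274), the ligand of PD-1, can be carried by tumour cells and macrophages.

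Some arrays stood apart or went against a label. Over all genes, cobalt tumour 6 had a mean Pearson correlation of 0.969 with the controls and 0.945 with the other cobalt tumours. Control 6 is called a spontaneous tumour in its free-text description but a control in every other label. Its mean correlation was 0.9889 with controls 1 to 5 and 0.9202 with spontaneous tumours. Controls 5 and 6 correlated at 0.9966, the next closest control pair at 0.9917. Xist, a transcript of female cells, was above 10 in all 6 controls, in 2 spontaneous tumours and in 4 cobalt tumours, and at most 6.82 on the other arrays, so the groups are unlike in that measure. Calls that changed without one of these arrays are named below.

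In spontaneous tumours 3 of the 10 genes passed the test against control lung (limma, Benjamini-Hochberg adjusted p below 0.05 over 18193 genes), 1 higher and 2 lower, beside 34.6% of all genes called, 16.4% higher and 18.2% lower. In cobalt tumours 2 of the 10 passed, both lower, beside 34.0% of all genes called, 14.7% higher and 19.3% lower. None of the 10 passed limma's test between cobalt and spontaneous tumours, where 15 genes were called, 0.0824% of all, with 0.0440% higher and 0.0385% lower in cobalt tumours, and 0.616% of all genes had groups without overlap. At an unadjusted p below 0.05, 1 of the 10, Havcr2, differed between the tumour kinds. The median log2 difference of the 10 genes was -0.08 in spontaneous and -0.03 in cobalt tumours, against -0.03 for all genes in both. Neither the counts nor the medians of the 10 genes as a set stand far from those of all genes, and the differences lie in single genes. Both tumour comparisons use the same 6 controls.

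**Figure D1:**
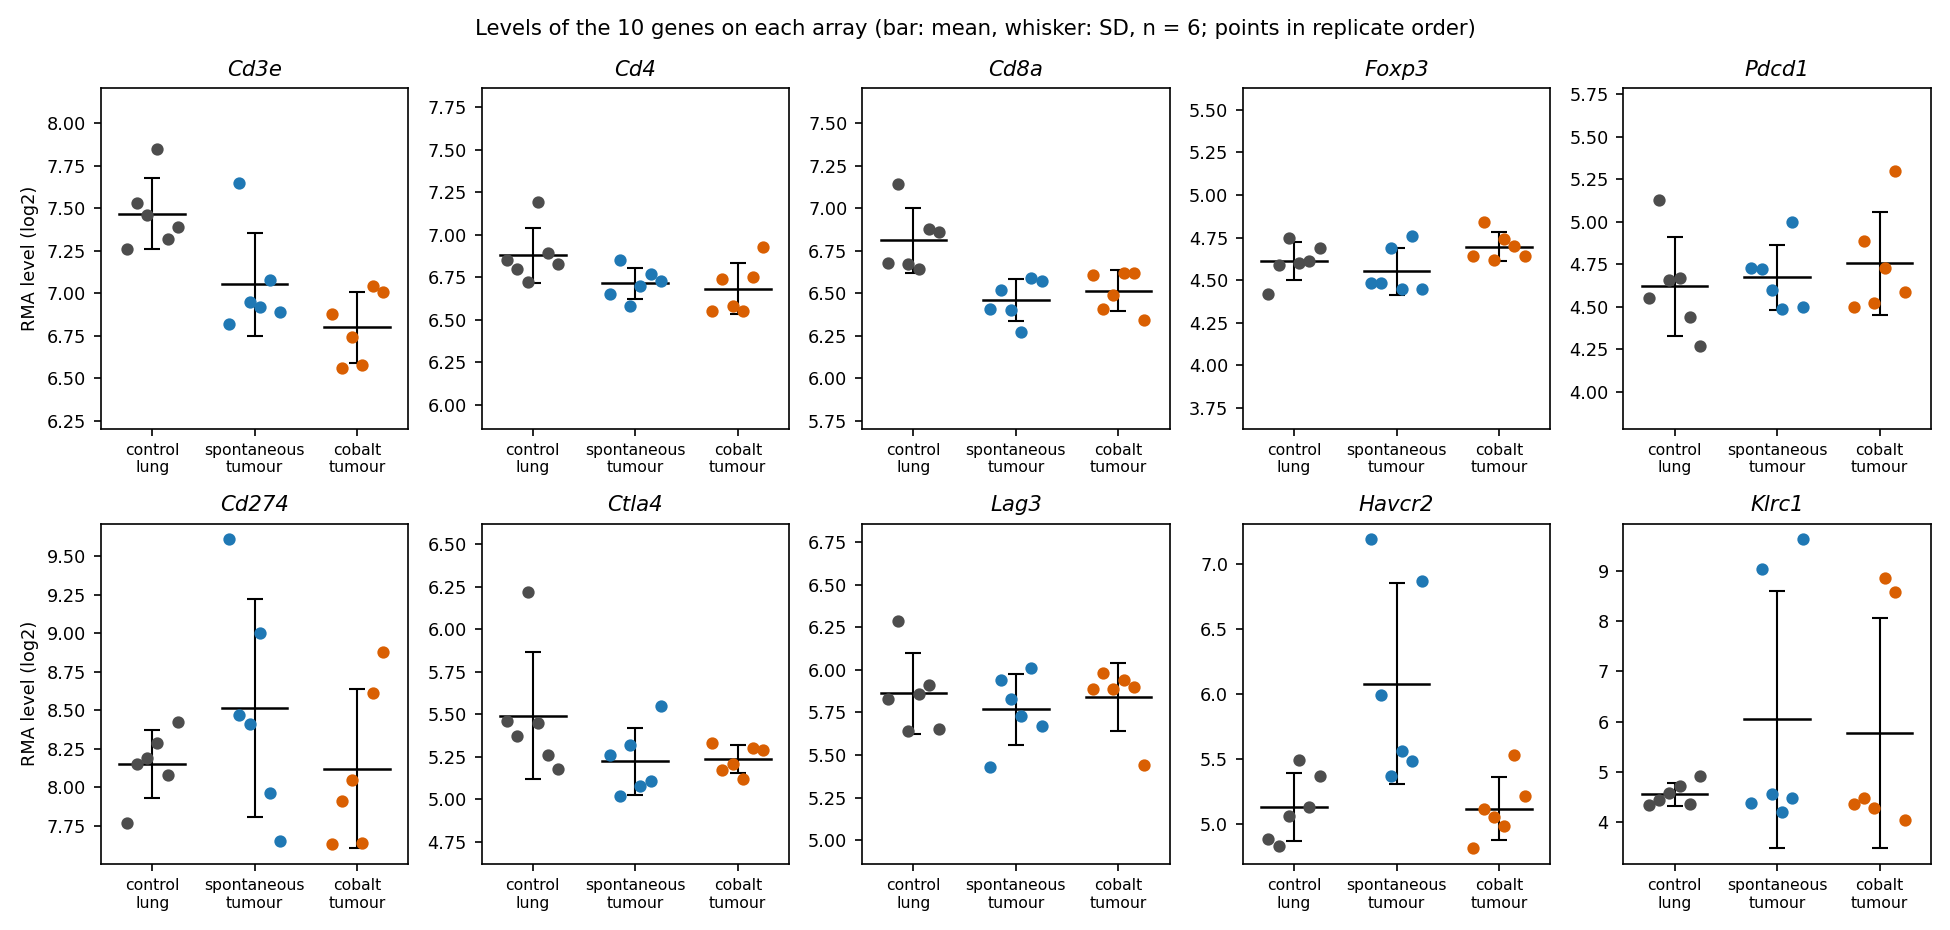
RMA level (log2, vertical axis) of each of the 10 genes on each array, with control lung, spontaneous tumours and cobalt tumours side by side. Bars are means and whiskers SD over 6 arrays. Cd3e sits lower in both tumour groups, apart from spontaneous tumour 2 at 7.65, Havcr2 is raised in spontaneous tumours, and Klrc1 lies at 8.57 or above, or at 4.92 or below, with no array between.

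Cd3e encodes CD3 epsilon, a signalling chain that every T cell receptor needs to reach the cell surface. Its level in control lung ran from 7.26 through a median of 7.42 to 7.85. In spontaneous tumours it ran from 6.82 through 6.93 to 7.65, and in cobalt tumours from 6.56 through 6.81 to 7.04. All 6 cobalt tumours and 5 of 6 spontaneous tumours lay below the lowest control, while spontaneous tumour 2, at 7.65, lay among the controls, apart from the next spontaneous tumour at 7.08. Cd3e was 0.67 lower in cobalt tumours than in control lung on the log2 scale (-0.67, SE 0.14, 1.59-fold lower, limma adjusted p = 0.00115), with no overlap between the groups. That call was kept with each array left out in turn (-0.71 to -0.59, adjusted p from 0.000155 to 0.00363).

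In spontaneous tumours the Cd3e difference was -0.41 (SE 0.14, 1.33-fold lower, limma adjusted p = 0.028), and this call was near its threshold. It was lost with cyclic loess scaling (-0.36, adjusted p = 0.0536), with the exact permutation test (adjusted p = 0.068), and when control 2, control 4 or spontaneous tumour 1, 3, 4 or 6 was left out (adjusted p from 0.0516 to 0.0696). Without spontaneous tumour 2 the difference was -0.53 with an adjusted p of 0.00157. Among arrays with Xist above 10, which include only 2 spontaneous and 4 cobalt tumours, it was -0.56 (adjusted p = 0.0309), and the cobalt difference was -0.63 (adjusted p = 0.00451). Between cobalt and spontaneous tumours Cd3e differed by -0.25 (95% interval -0.54 to 0.04, adjusted p = 0.51), so the order of the group means was control, spontaneous, cobalt, with no call between the last pair.

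Part of the receptor machinery around Cd3e was lower as well. Of 33 genes listed for the T cell receptor complex and its first signalling steps, 26 were measured, and 14 were called lower, none higher and 12 not called in each tumour kind. The list medians were -0.32 in spontaneous and -0.43 in cobalt tumours. Of all genes, 34.6% were called in spontaneous tumours (16.4% higher, 18.2% lower) and 34.0% in cobalt tumours (14.7% higher, 19.3% lower). The counts of this list and of all lists below are to be read beside these shares. Cd3d, the neighbour of Cd3e on the chromosome and a partner chain in the receptor, fell in spontaneous (-0.90, adjusted p = 0.0471) and in cobalt tumours (-1.10, adjusted p = 0.0169). Cd3g, another partner chain, fell as well (-0.86, adjusted p = 0.0485, and -1.36, adjusted p = 0.00323). The largest called differences included Cd2, an adhesion receptor of T and NK cells, at -1.26 (adjusted p = 0.00966) and -1.90 (adjusted p = 0.000419), and the kinase gene Fyn, at -1.08 and -1.45. Fyn is a kinase that lymphocytes share with many cell types. Prkcq, the T cell kinase PKC theta, differed by -1.03 and -1.12.

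The count of 14 in spontaneous tumours depended on single arrays. It was 8 or 9 when any 1 of controls 2 to 6 or of spontaneous tumours 1, 3, 4, 5 and 6 was left out, 16 without spontaneous tumour 2, 8 with cyclic loess and 7 with the exact permutation test, always with none higher. Spontaneous tumour 2 carried the highest mean level of this list among tumours, 6.73, equal to the highest control, while the other tumours lay between 5.93 and 6.21. On that array Cd3d stood at 8.88 and Cd3g at 7.78, each above every other array.

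Cd4 encodes the helper T cell coreceptor. Its level ran from 6.72 through 6.84 to 7.19 in control lung, from 6.58 through 6.72 to 6.85 in spontaneous tumours and from 6.55 through 6.66 to 6.93 in cobalt tumours. The groups overlapped, and control 4 at 7.19 was the highest of all arrays. The differences from control were -0.17 in spontaneous (95% interval -0.35 to 0.01, adjusted p = 0.148) and -0.20 in cobalt tumours (95% interval -0.38 to -0.02, adjusted p = 0.0838), neither past the threshold. In cobalt tumours the adjusted p was 0.0257 without cobalt tumour 6 (-0.25) and 0.0297 with array weights (-0.23). A second probe set of Cd4 gave -0.13 (adjusted p = 0.334) and -0.10 (adjusted p = 0.47).

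Cd8a encodes the alpha chain of the killer T cell coreceptor. Its chosen probe set ran from 6.64 through 6.77 to 7.14 in control lung, from 6.27 through 6.47 to 6.59 in spontaneous tumours and from 6.34 through 6.55 to 6.62 in cobalt tumours. All 12 tumours lay below the lowest control, although the gap to the highest cobalt tumour was small. Cd8a fell in spontaneous (-0.35, SE 0.09, 1.27-fold, limma adjusted p = 0.0059) and in cobalt tumours (-0.29, SE 0.09, 1.23-fold, adjusted p = 0.0174). With each array left out in turn both calls on this probe set were kept (-0.38 to -0.28 and -0.33 to -0.23). Groups without overlap made up 21.1% of all genes in the spontaneous and 18.9% in the cobalt comparison, beside 1 (Cd8a) and 2 (Cd3e and Cd8a) of the 10 genes.

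The 5 probe sets of Cd8a did not give the same picture. The chosen one, 1440164_x_at, has the suffix by which the maker marks probes that can also match other transcripts. A second of that kind, 1440811_x_at, also fell, with -0.50 in spontaneous (adjusted p = 0.0269) and -0.44 in cobalt tumours (adjusted p = 0.049). The other 3, 1425335_at, 1444078_at and 1451673_at, differed by -0.12 to -0.09 in spontaneous (adjusted p = 0.6 to 0.837) and by -0.36 to -0.09 in cobalt tumours (adjusted p = 0.363 to 0.711), and the mean of all 5 was not called in either (-0.23, adjusted p = 0.294, and -0.29, adjusted p = 0.181). The lower Cd8a level therefore holds for the 2 probe sets with that suffix and was not called for the other 3.

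Spontaneous tumour 2 separated the probe sets. There 1425335_at read 7.15, 1444078_at 6.90 and 1451673_at 6.61, each the highest of its 18 arrays, while the chosen probe set read 6.52, within the range of the other tumours. Cd8b1, the neighbouring gene for the beta chain of the same coreceptor, stood at 7.79 on that array and at 5.28 to 6.29 on the other 17. Cobalt tumour 5 showed the next highest values of 1444078_at and 1451673_at, 5.78 and 5.42. Cd8b1 itself differed from control by -0.09 in spontaneous (adjusted p = 0.856) and -0.35 in cobalt tumours (adjusted p = 0.462).

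**Figure D2:**
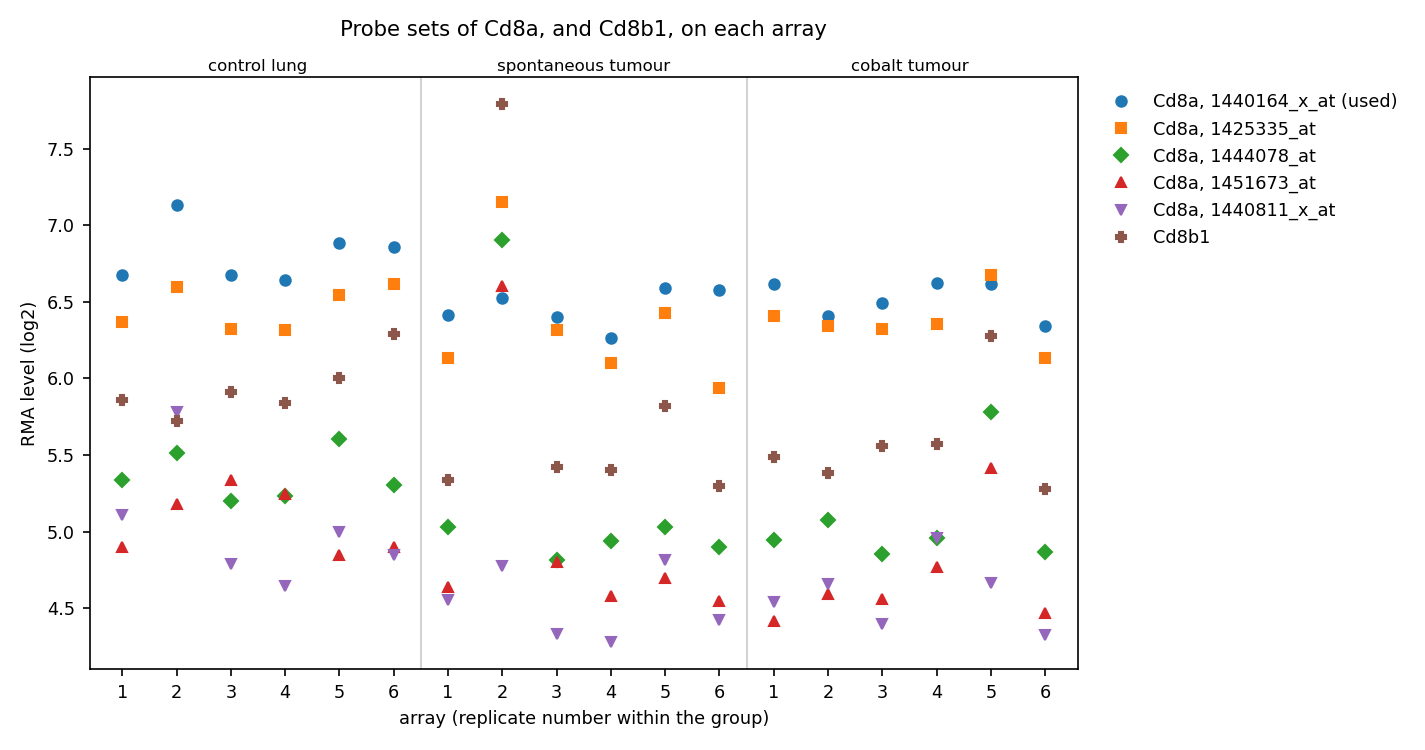
RMA level (log2, vertical axis) of the 5 probe sets of Cd8a and of Cd8b1 on each array (horizontal axis, replicate number within each group). On spontaneous tumour 2, 3 probe sets and Cd8b1, at 7.79, rise together, while the probe set used for Cd8a, at 6.52, stays among the other tumours.

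Foxp3 encodes the transcription factor that defines regulatory T cells. Its level ran from 4.42 through 4.60 to 4.75 in control lung, from 4.45 through 4.48 to 4.76 in spontaneous tumours and from 4.62 through 4.67 to 4.84 in cobalt tumours. The 3 ranges overlapped throughout. The differences from control were -0.06 (95% interval -0.21 to 0.10, adjusted p = 0.579) and 0.09 (95% interval -0.07 to 0.24, adjusted p = 0.412), and the cobalt tumours differed from the spontaneous by 0.14 (adjusted p = 0.478).

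Of the 10 genes, 6 (Foxp3, Pdcd1, Ctla4, Lag3, Havcr2 and Klrc1) were among the 6064 dimmest of the 18193 genes by mean level. As a rough gauge of dim probe sets, 71 odorant, pheromone and trace amine receptor genes, which lung is not known for, had mean levels with a median of 4.45 and 5th and 95th percentiles of 3.82 and 6.19. Of these 71 genes, 31 had a higher mean level than Foxp3, 28 than Pdcd1, 12 than Ctla4, 10 than Havcr2, 9 than Klrc1 and 6 than Lag3, and 1 than Cd3e, Cd4 or Cd8a. For Foxp3 and Pdcd1 a difference between groups may thus be too small to detect on these arrays, and no call does not show that their RNA is equal.

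Pdcd1 encodes PD-1, an inhibitory receptor that activated T cells acquire. It ran from 4.27 through 4.61 to 5.13 in control lung, from 4.49 through 4.66 to 5.00 in spontaneous tumours and from 4.50 through 4.66 to 5.30 in cobalt tumours. The ranges overlapped, with differences from control of 0.05 (95% interval -0.27 to 0.36, adjusted p = 0.828) and 0.13 (95% interval -0.18 to 0.45, adjusted p = 0.543). Its highest level was on cobalt tumour 5.

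Cd274 encodes PD-L1, the PD-1 ligand. It ran from 7.77 through 8.17 to 8.42 in control lung, from 7.65 through 8.44 to 9.61 in spontaneous tumours and from 7.63 through 7.98 to 8.88 in cobalt tumours. The tumours spread on both sides of the controls: spontaneous tumours 1, 2 and 4 (8.47 to 9.61) and cobalt tumours 5 and 6 (8.61 and 8.88) exceeded the highest control. The SD was 0.22 in control lung, 0.71 in spontaneous and 0.52 in cobalt tumours. The means did not differ past the threshold, at 0.37 in spontaneous (95% interval -0.23 to 0.97, adjusted p = 0.341) and -0.03 in cobalt tumours (95% interval -0.63 to 0.57, adjusted p = 0.95).

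Pdcd1lg2, the gene next to Cd274 and the source of the other PD-1 ligand, PD-L2, was named because of that position. It read 6.45 on spontaneous tumour 2 and 4.28 to 5.42 on the other 17 arrays. Its group differences were 0.32 (adjusted p = 0.442) and -0.03 (adjusted p = 0.961). Cxcl9, a chemokine induced by interferon gamma, was picked out after its values were seen: it reached 7.92 on spontaneous tumour 1, 8.05 on spontaneous tumour 2 and 9.34 on cobalt tumour 5, against 5.23 to 6.21 in control lung. The other two tumours with Cd274 above the controls, spontaneous tumour 4 and cobalt tumour 6, had Cxcl9 at 5.85 and 5.20.

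Ctla4 encodes CTLA-4, which competes with the activating receptor CD28 for the same ligands. It ran from 5.18 through 5.41 to 6.22 in control lung, from 5.02 through 5.18 to 5.55 in spontaneous tumours and from 5.12 through 5.25 to 5.33 in cobalt tumours. Control 3, at 6.22, lay apart from the other controls, whose highest was 5.46. That array also had the highest B cell marker mean, 8.94, and the B cell receptor gene Cd79a at 10.96. The part of B-cell-rich tissue in the Ctla4 value was not tested. The differences from control were -0.27 (adjusted p = 0.153) and -0.25 (adjusted p = 0.18).

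Ctla4 lies between Cd28 and Icos, 2 related genes for activating receptors, which were named for their position. Cd28 differed from control by -0.47 in spontaneous tumours (adjusted p = 0.132) and fell in cobalt tumours (-0.70, adjusted p = 0.0291). Icos differed by -0.06 (adjusted p = 0.762) and 0.12 (adjusted p = 0.514).

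Lag3 encodes an inhibitory receptor related to CD4 that binds MHC class II, and it lies next to Cd4 on the chromosome. It ran from 5.64 through 5.85 to 6.29 in control lung, from 5.43 through 5.78 to 6.01 in spontaneous tumours and from 5.44 through 5.90 to 5.98 in cobalt tumours. Of the cobalt tumours, 5 lay between 5.89 and 5.98, and cobalt tumour 6, at 5.44, lay below them. The differences from control were -0.10 (95% interval -0.35 to 0.16, adjusted p = 0.577) and -0.02 (95% interval -0.28 to 0.24, adjusted p = 0.914).

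Among the inhibitory receptor genes the results turn on Havcr2 and Klrc1, whose promoters are shown for that reason, chosen after the values were seen. Each sequence is the 250 bases before the RefSeq transcript start on GRCm38.p6, in the direction of the gene: Havcr2 at chr11:46454681-46454930 (plus strand) and Klrc1 at chr6:129678974-129679223 (minus strand). Capitals mark matches to the AP-1 motif TGANTCA and the RUNX motif TGTGGT, which on the opposite strand reads ACCACA.
Havcr2: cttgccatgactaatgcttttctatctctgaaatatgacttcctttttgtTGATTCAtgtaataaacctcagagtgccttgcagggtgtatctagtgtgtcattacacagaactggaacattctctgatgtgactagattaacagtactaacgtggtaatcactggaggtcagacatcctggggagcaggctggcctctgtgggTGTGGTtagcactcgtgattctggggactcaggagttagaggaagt
Klrc1: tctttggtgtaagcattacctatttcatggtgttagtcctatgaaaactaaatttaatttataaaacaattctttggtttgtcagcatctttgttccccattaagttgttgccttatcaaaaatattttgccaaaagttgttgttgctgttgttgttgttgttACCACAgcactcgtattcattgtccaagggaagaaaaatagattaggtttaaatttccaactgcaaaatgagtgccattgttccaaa
In Havcr2 the AP-1 match lies 200 to 194 bases before the start and the RUNX match 46 to 41 bases before it. In Klrc1 the RUNX match lies 87 to 82 bases before the start. RUNX factors are needed for T and NK cell development, and AP-1 factors follow receptor signals in many cell types, but a match is not a binding site. Of 32851 RefSeq promoter windows of this length, 14.0% hold the RUNX motif and 6.75% the AP-1 motif on either strand.

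The promoter table held 9 windows for 8 of the 10 genes, Foxp3 with 2 and Cd4 and Lag3 with none. Both strands were searched for the 7 motifs given here, and matches of different motifs could overlap. The RUNX motif was in 2 of the 9 windows and the AP-1 motif in 1. Of the others, TTCNNGGAA (STAT5-like) was in 1 window and in 4.06% of all windows, and GGAAAA (NFAT) in 2 and 20.4%. The IRF, NF-kB and ETS (CCGGAAG) motifs had no match in the 9 windows, against 2.98%, 1.41% and 6.91% of all windows.

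Havcr2 encodes TIM-3, a receptor of exhausted T cells that macrophages and dendritic cells carry too. Its level in control lung was 4.88, 4.83, 5.06, 5.49, 5.13 and 5.37 on controls 1 to 6. On spontaneous tumours 1 to 6 it was 7.19, 5.99, 5.37, 5.56, 5.48 and 6.87. On cobalt tumours 1 to 6 it was 4.81, 5.11, 5.05, 4.98, 5.53 and 5.21. Of the spontaneous tumours, 4 lay above every control and 2 within the control range, while 4 of 6 cobalt tumours lay within the control range, 1 below it and 1 above it.

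Havcr2 rose in spontaneous tumours by 0.95 (SE 0.27, 95% interval 0.38 to 1.51, 1.93-fold, limma adjusted p = 0.0107), from 5.13 ± 0.26 to 6.07 ± 0.77 (SD, n = 6). The control mean and the spontaneous mean both lie within the 3.82 to 6.19 range of the dim receptor genes. Only spontaneous tumours 1 and 6, at 7.19 and 6.87, read above that range. The control level was not shown to be above background, so the fold is one of measured levels and may understate the change. In cobalt tumours the difference from control was -0.01 (95% interval -0.58 to 0.55, adjusted p = 0.98). The cobalt tumours lay below the spontaneous by -0.96 (95% interval -1.52 to -0.39), with an unadjusted limma p of 0.00226 that did not pass after adjustment over all genes (adjusted p = 0.184). A difference in Havcr2 between the tumour kinds was therefore not called. The rise in spontaneous tumours was kept when each array in turn was left out (0.72 to 1.09, adjusted p from 0.00475 to 0.0269). Among arrays with Xist above 10, which include only 2 of the spontaneous tumours, the rise was 1.08 (adjusted p = 0.0196).

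Macrophage markers were set beside Havcr2, which was called higher than control in spontaneous tumours only. Of 12 listed, 11 were measured, and 6 rose and none fell in spontaneous tumours, while 5 rose and 1 fell in cobalt tumours. Their mean level was 9.07 to 9.71 in control lung, 9.90 to 10.76 in spontaneous and 9.35 to 10.36 in cobalt tumours. Spontaneous tumour 1 was highest in both, Havcr2 at 7.19 and the macrophage mean at 10.76. Spontaneous tumour 6 had a macrophage mean of 9.95 with Havcr2 at 6.87, and cobalt tumour 6 had a macrophage mean of 10.36 with Havcr2 at 5.21. The part of macrophage RNA in the Havcr2 level was not tested. Of 9 dendritic cell markers measured, 3 rose and 1 fell in spontaneous tumours, and 1 rose and 3 fell in cobalt tumours.

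**Figure D3:**
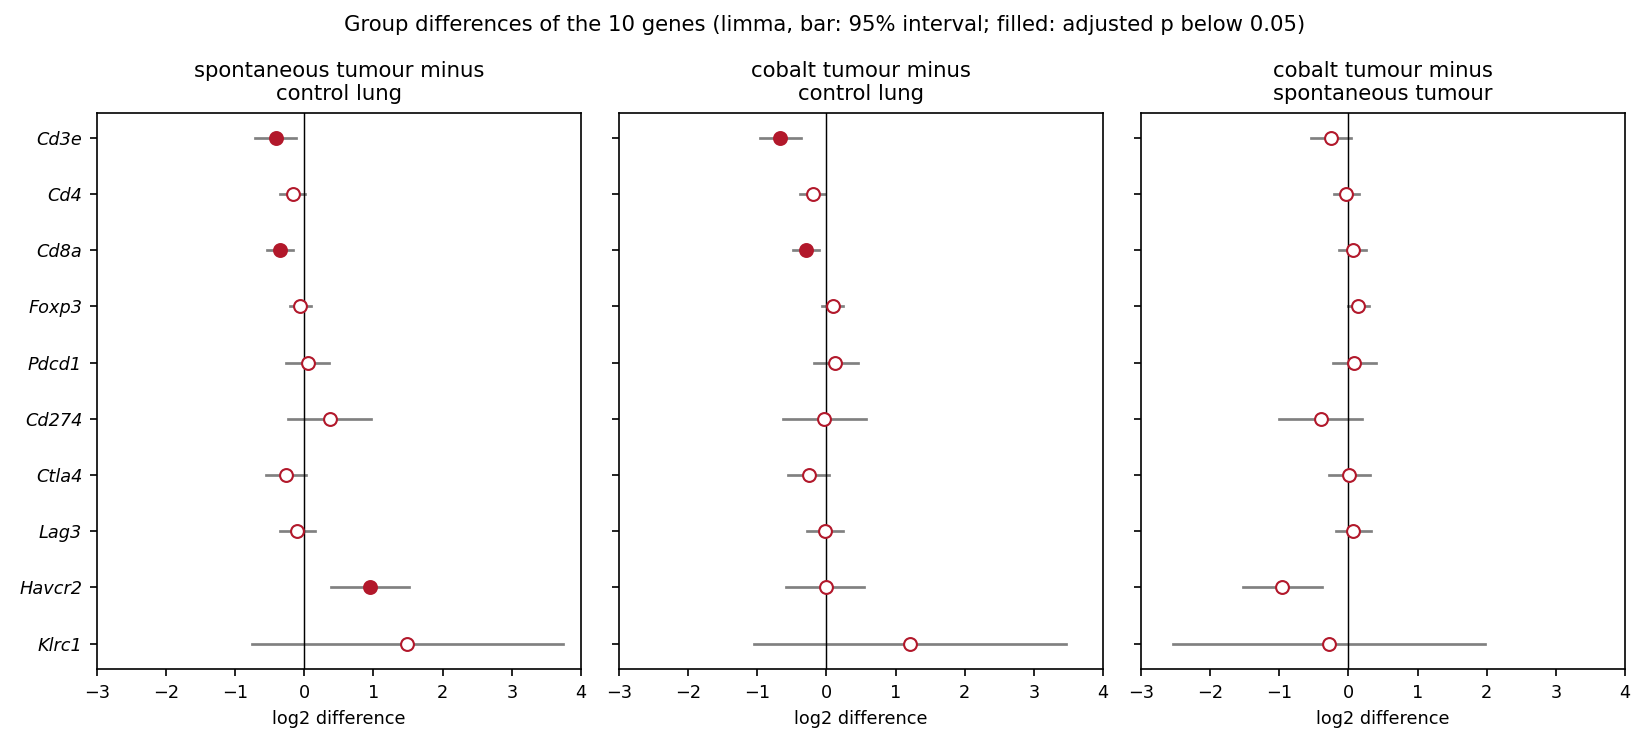
Log2 difference (horizontal axis) of each of the 10 genes for spontaneous tumour minus control, cobalt tumour minus control and cobalt minus spontaneous tumour, with 95% intervals from limma and filled symbols for adjusted p below 0.05. Cd3e and Cd8a lie below 0 in both comparisons with control, Havcr2 is at 0.95 in spontaneous and -0.01 in cobalt tumours, and the intervals of Klrc1 are the widest of the 10.

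Klrc1 encodes NKG2A, an inhibitory receptor of NK cells and some killer T cells, which works as a pair with CD94, the product of Klrd1. Its level on controls 1 to 6 was 4.34, 4.43, 4.58, 4.71, 4.35 and 4.92. On spontaneous tumours 1 to 6 it was 4.37, 9.04, 4.56, 4.20, 4.48 and 9.63. On cobalt tumours 1 to 6 it was 4.36, 4.47, 4.28, 8.85, 8.57 and 4.05. Spontaneous tumours 2 and 6 and cobalt tumours 4 and 5 thus formed a high group at 8.57 to 9.63, and the other 14 arrays lay at 4.05 to 4.92, with none between.

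A second Klrc1 probe set, 1425005_at, was high on these arrays too, at 8.99 and 9.66 on spontaneous tumours 2 and 6 and at 10.02 and 9.14 on cobalt tumours 4 and 5. With 2 of 6 arrays high in each tumour kind, the mean differences had wide intervals and did not pass the test: 1.49 in spontaneous tumours (95% interval -0.76 to 3.74, adjusted p = 0.302) and 1.21 in cobalt tumours (95% interval -1.04 to 3.46, adjusted p = 0.422). Cobalt and spontaneous tumours differed by -0.28 (95% interval -2.53 to 1.97, adjusted p = 0.951). Since the arrays fall into 2 clusters, no test of a correlation with Klrc1 is given, and the 4 arrays are not a labelled group. Ranges on these and the other 14 arrays are given below as descriptions, with no test.

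The genes beside Klrc1 in the NK receptor cluster showed no step of that size. Klrc2 read 4.37 to 4.55 on the 4 arrays and 4.05 to 4.43 on the others, and Klrc3 read 3.67 to 3.98 and 3.58 to 3.76. These are close relatives of Klrc1, and a probe set may not separate near-identical copies. Klrd1, the CD94 partner, read 4.51 to 6.99 on the 4 arrays, against 4.24 to 6.87 on the others, and was at 4.51 on spontaneous tumour 6, where Klrc1 was highest. Klrk1, the activating receptor NKG2D, read 5.13 to 7.15 and 4.92 to 6.27.

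Other NK genes overlapped between these 4 arrays and the rest. Ncr1, a receptor that marks NK cells, read 4.23 to 4.78 on the 4 arrays and 4.33 to 6.38 on the others. Nkg7, a granule gene of NK and killer T cells, ran from 5.85 to 9.0 on the 4 and from 5.54 to 7.97 on the others. The mean of the NK list was 5.78 to 6.24 in control lung, 5.54 to 6.39 in spontaneous and 5.48 to 6.00 in cobalt tumours. Among the epithelial markers, Krt7, Krt8 and Krt18 were picked out after their values were seen. On the 4 arrays they read 12.83 to 13.86, 13.50 to 14.06 and 13.62 to 13.86. On the others they read at most 11.90, 12.82 and 13.01. The remaining epithelial markers overlapped between these arrays and the rest. The cell type that carries the Klrc1 signal cannot be read from bulk arrays and was not tested.

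**Figure D4:**
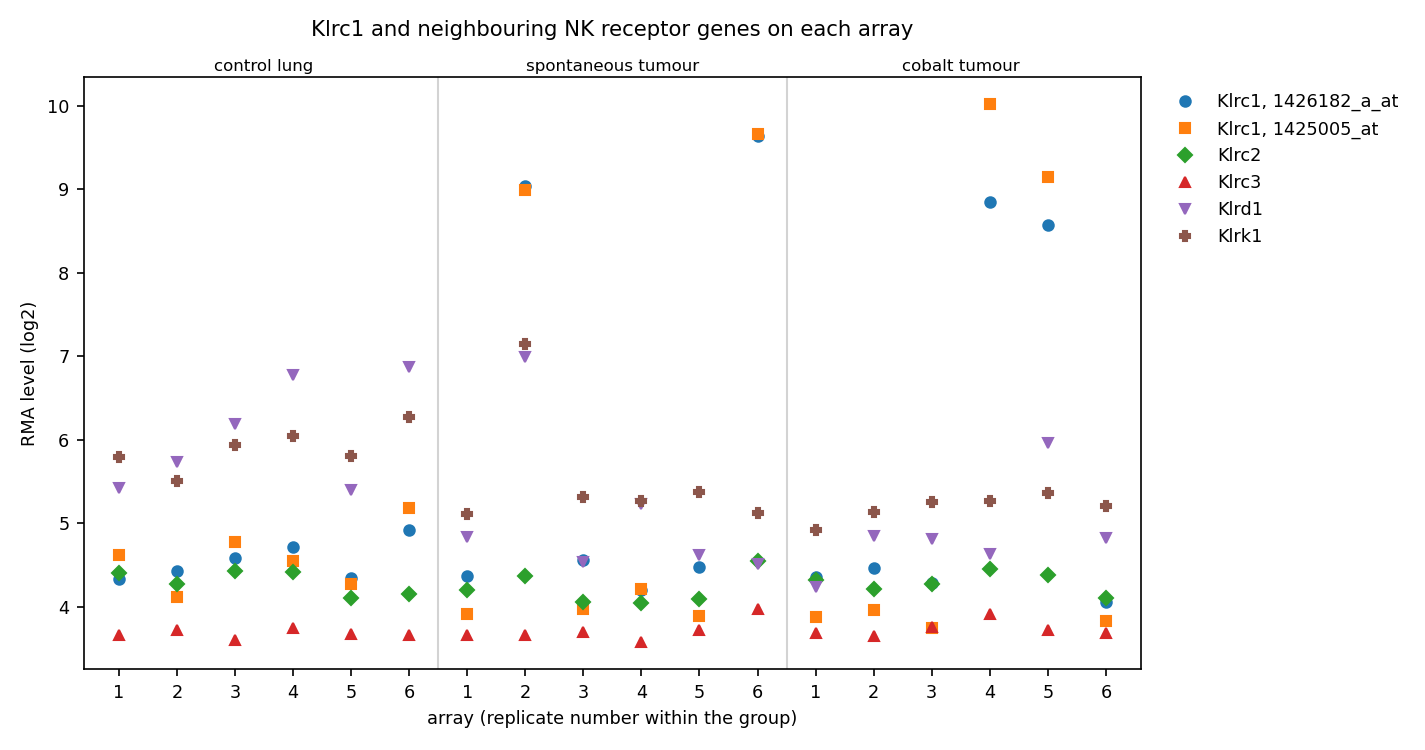
RMA level (log2, vertical axis) of both probe sets of Klrc1 and of Klrc2, Klrc3, Klrd1 and Klrk1 on each array (horizontal axis, replicate number within each group). Both Klrc1 probe sets are high on spontaneous tumours 2 and 6 and on cobalt tumours 4 and 5, while Klrc2 stays between 4.05 and 4.55 on all arrays.

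The genes most like Klrc1 across arrays, by Pearson correlation of deviations from the group means among 11706 genes outside those 6064, were Crybg1, Ppl and Tnfrsf23, each at 0.97. As Klrc1 has 2 clusters, these coefficients describe that split and carry no p. Tnfrsf23, a mouse decoy receptor for the death ligand TRAIL, read 8.99 to 10.78 on the 4 arrays and 5.01 to 6.86 on the other 14. Crybg1 read 9.03 to 9.54 and 5.80 to 7.24. Ppl, which encodes the epithelial junction protein periplakin, read 9.34 to 9.93 and 8.41 to 9.11. All 3 ranges were separate from those of the other arrays, which largely follows from choosing these genes by their likeness to Klrc1.

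The most similar genes of the other 9 differed in kind. For Cd3e they were Cd3g (0.83), the T cell chemokine receptor gene Cxcr3 (0.82) and the receptor segment Trbv1 (0.82). Without the 2 arrays farthest from the Cd3e median, spontaneous tumour 2 and control 4, these were 0.72, 0.55 and 0.68. For Cd4 they were the macrophage gene Adgre1 (0.82), Gdap2 (0.80) and Ada (0.80). For Ctla4 they were the B cell genes Cd79a (0.89) and Spib (0.88), and Zbtb32 (0.87), which fell to 0.48, 0.42 and 0.33 without control 3 and spontaneous tumour 6.

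For Cd274 they were Mreg (0.91), Pald1 (0.87) and the macrophage receptor gene Mertk (0.87), and for Cd8a they were Ttll10 (0.90), Tmc8 (0.86) and Col25a1 (0.84). For Lag3 they were Ccl28 (0.90), Ptger1 (0.89) and Wnk2 (0.89). For Havcr2 they were Bdh1 (0.81), Snrnp40 (0.79) and C1d (0.79), for Foxp3 Alpl (0.82), Grip2 (0.82) and Unkl (0.81), and for Pdcd1 Anks1b (0.75), Selenoo (0.74) and Barx1 (0.74). Without cobalt tumour 5 and control 2 those of Pdcd1 were 0.46, 0.80 and 0.47. The Cd3e list holds other T cell receptor genes, whereas no such gene is among the 3 closest to Cd4, Cd8a, Foxp3, Pdcd1, Ctla4, Lag3 or Havcr2. For Cd8a this covers the chosen probe set only, and genes like its other probe sets were not searched for. The search left out the dimmest genes, so dim T cell genes such as Cd8b1 could not appear in any of these lists. All of these values share the 18 arrays and are descriptions.

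Whether the other genes follow Cd3e from array to array within the groups was examined by the correlation of deviations from the group means over 18 arrays. In all, 9 relations were computed, and that with Klrc1 is not given because of its 2 clusters. Cd4 had a Pearson r of 0.61 with Cd3e (permutation p = 0.00774, adjusted p = 0.0697) and a Spearman rho of 0.33 (permutation p = 0.212, adjusted p = 0.925). Without spontaneous tumour 2 and control 4 the r of Cd4 was 0.34 (permutation p = 0.363), so the relation rests on those arrays. The other 7 genes had r between -0.07 and 0.27, with adjusted permutation p from 0.915 to 0.977. None of the checkpoint genes, nor Cd8a by its chosen probe set, was thus shown to follow Cd3e within groups. Other Cd8a probe sets were not tested against Cd3e. Of these, 1425335_at, 1444078_at and 1451673_at were highest on spontaneous tumour 2, where Cd3e was the highest among tumours.

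Among 27 measured genes of 31 listed for T cell subsets and states, 8 fell and 1 rose in spontaneous tumours and 12 fell and 1 rose in cobalt tumours, with medians of -0.21 and -0.34. Of all genes, 34.6% and 34.0% were called, 18.2% and 19.3% lower. The 9 called of 27 in spontaneous tumours are near the share of all genes called. S1pr1, the receptor that lets T cells leave lymph nodes, fell in spontaneous (-3.35) and cobalt tumours (-2.99). Klf2, a factor that drives S1pr1, fell too (-2.31 and -2.28), as did Gata3, the type 2 helper factor (-1.53 and -1.65). The gene called higher was Tnfrsf9, the activation receptor 4-1BB, in spontaneous tumours (0.79, adjusted p = 0.0116) and Tnfrsf18, the receptor GITR, in cobalt tumours (0.53, adjusted p = 0.0255). S1pr1 and Klf2 are also strongly expressed by vessels: all 12 endothelial markers fell in both tumour kinds, with a mean level of 11.20 to 11.59 in control lung, 7.91 to 9.32 in spontaneous and 7.61 to 10.44 in cobalt tumours. The part of lost vessels in these 2 values was not tested.

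Among 31 measured genes of 38 listed as other checkpoint receptors and ligands, 6 rose and 10 fell in spontaneous tumours and 5 rose and 10 fell in cobalt tumours. Of all genes, 34.6% and 34.0% were called. Tnfsf9, the ligand of 4-1BB, rose by 3.32 (9.98-fold, adjusted p = 4.03e-05) and 3.52 (11.4-fold, adjusted p = 2.42e-05). Its control levels were 5.77 to 6.18 and its tumour levels 8.02 to 10.84, with no overlap. Nectin2, a ligand of TIGIT and its relatives that epithelium carries, rose by 1.88 and 1.75, Cd276, which encodes B7-H3, by 1.74 and 1.63, and Lgals3, which encodes galectin-3, by 1.38 and 1.06. Epithelial markers rose as well, 8 of 12 in each tumour kind with none lower, and their part in these ligand values was not tested.

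The genes of this list that fell include receptors of lymphocytes and myeloid cells. Btla, an inhibitory receptor of B and T cells, fell in both (-1.63 and -2.31), and so did Vsir, which encodes VISTA (-1.65 and -2.07). Cd40, an activating receptor of antigen-presenting cells, fell (-0.95 and -0.91). Lgals9, a proposed ligand of TIM-3, fell (-0.91 and -1.25), as did Ido1, whose enzyme degrades tryptophan and restrains T cells (-0.88 and -1.11). B cell markers fell beside Btla, 4 of 9 in spontaneous and 6 of 9 in cobalt tumours, and their part was not tested.

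Of 18 measured NK receptors and markers of 22 listed, 6 fell and none rose in spontaneous tumours, and 8 fell and 1 rose in cobalt tumours. Of all genes, 34.6% and 34.0% were called, and the 6 of 18 in spontaneous tumours are near that share. All 6 were lower, however, and 18.2% and 19.3% of all genes were called lower. The share of the NK list called lower exceeded these in both tumour kinds. Ccl5, a chemokine of NK and T cells, fell in both (-1.70 and -2.58), as did Ncr1 (-0.86 and -0.83). In cobalt tumours Nkg7 (-1.55) and Klrd1 (-1.18) fell, and Il18rap, a chain of the interleukin-18 receptor, rose by 1.56. Of 18 measured interferon gamma response genes of 20 listed, 5 fell in spontaneous and 6 in cobalt tumours and none rose, with Gbp7, an interferon-induced GTPase, at -1.52 and -1.72 and the receptor chain gene Ifngr1 at -1.07 and -1.19. Those counts were 8 and 10 without cobalt tumour 5. With all arrays, the called share of the interferon gamma list did not exceed that of all genes. Its share called lower did exceed the 18.2% and 19.3% of all genes called lower. None of the 120 measured genes of these 5 lists was called between cobalt and spontaneous tumours by limma, while 2 had an unadjusted limma p below 0.05.

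**Figure D5:**
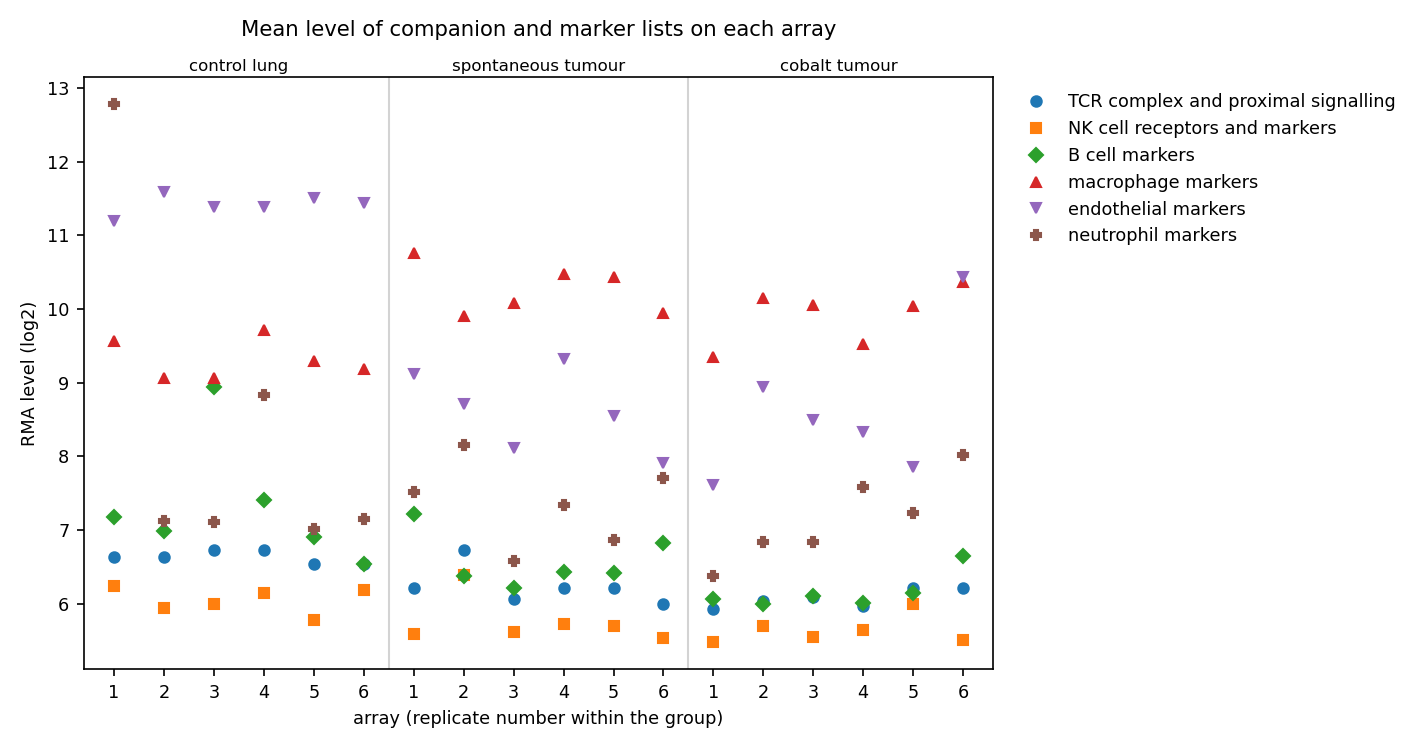
Mean RMA level (log2, vertical axis) of 6 gene lists on each array (horizontal axis, replicate number within each group). The endothelial mean is 11.20 to 11.59 in control lung and at most 10.44 in tumours, the T cell receptor list is 6.54 to 6.73 in control lung with spontaneous tumour 2 at 6.73 among the tumours, and the B cell mean is highest on control 3.

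Across all leukocytes the picture was mixed. Of 10 pan-leukocyte markers 1 rose and none fell in spontaneous tumours, and 1 rose and 4 fell in cobalt tumours. Their mean levels were 9.52 to 11.81 in control lung, 9.93 to 10.87 in spontaneous and 8.89 to 10.10 in cobalt tumours. The 11.81 was on control 1, and the other controls lay between 9.52 and 10.51. Of 9 neutrophil markers none was called in either comparison by limma, while 1 in spontaneous and 3 in cobalt tumours had an unadjusted p below 0.05 and the exact permutation test called 1 in each, with control 1 at a mean of 12.78 and no other array above 8.83.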

How the data were processed

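RNA of 18 samples was hybridised to Affymetrix 3′ expression arrays, 6 arrays in each of 3 groups taken from the labels. The deposited values are log2 levels made by the authors with RMA (background correction, quantile normalization and summary of probes), per the submitters' processing notes, and were used as deposited. Their array medians ran from 6.32 to 6.45. Of 45101 probe sets, 34945 carry 1 gene symbol, 932 several and 9160 none, and 64 are controls. For each gene the probe set with the highest mean was kept (18193 genes, of which 9010 had several).

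Groups were compared with limma 3.58.1 in R 4.3.3 (lmFit and eBayes over all 18 arrays), with Benjamini-Hochberg adjustment over 18193 genes. The number of arrays limits the precision. On simulated data of the spontaneous comparison (18193 genes, 100 changed at each size), limma recovered 84% of genes changed by a log2 difference of 1 and 91% at 2. The exact permutation test recovered 0% of either after adjustment. With so few genes changed its smallest p is too large to pass, so that value does not measure its recovery in the real data. There 34.6% of all genes were called by limma, so limma's rates may differ there too. The study's own permutation software was not used here, and an exact permutation test stood in for it as an alternative, with a smallest unadjusted p of 0.00216. The members and the gene lists were chosen with earlier results of these data known. Of 220 list entries, 192 were measured. The genes named are the 10 members, up to 4 genes called in each direction per companion list and comparison, and the 3 genes most like each member, and exceptions are marked. Alternatives were cyclic loess, no dim genes, other probe sets, array weights, robust eBayes, 12 arrays alone, a replicate block, arrays with Xist above 10 and leaving out each array. The other Cd4, Cd8a and Klrc1 probe sets and the list counts under these settings were added after seeing the data. One further promoter motif is not reported here.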

Additional observations from a re-analysis of the deposited data

Results flagged for a closer look

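In 4 of the 30 groups examined (10 genes in 3 groups of 6 arrays), the highest or lowest array stood apart, with a gap to its nearest neighbour that exceeds Dixon's critical share of the group's range for 6 values. Chance gives about 1 in 20. Cd3e on spontaneous tumour 2 was 7.65, against 7.08 for the next spontaneous tumour (gap 0.685 of the range), and Cd3d, Cd3g and Cd8b1 were also highest there. Cd4 on control 4 was 7.19, against 6.89 (gap 0.64). Ctla4 on control 3 was 6.22, against 5.46 (gap 0.737), on the array with the highest B cell marker mean. Lag3 on cobalt tumour 6 was 5.44, against 5.89 (gap 0.83), on the array that correlated better with the controls than with the other cobalt tumours. No cause was tested for any of them.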

How the results depend on the processing

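Of 810 group differences of the 10 genes recomputed under the alternatives, 751 kept their direction and side of the threshold, 18 lost a call, 2 gained one and 39 changed sign. Of 162 recomputed counts of calls, 15 moved by over 1.5 times, 9 down and 6 up, and 5 of 16 correlations changed sign. The rise of Havcr2 in spontaneous tumours and the fall of Cd3e in cobalt tumours kept their call in every alternative run on them. The members called in cobalt tumours numbered 1 with the mean of all probe sets, and with each array left out in turn they numbered 2 to 3 in either comparison with control. The genes called between tumour kinds numbered 26 without the 6064 dimmest genes, 24 with array weights, 1 with the 12 arrays alone, 1 with a replicate block, and 0 with Xist above 10 or by exact permutation, a test whose smallest p is too large for so few genes to pass adjustment. With each array left out they ranged from 1 to 82, with 82 without cobalt tumour 6.

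Differences under the threshold changed sign as follows, and the cause was not tested. In spontaneous tumours Foxp3 was 0.02 and Lag3 0.01 with cyclic loess, and Pdcd1 was -0.13 with Xist above 10. In cobalt tumours Lag3 was 0.05 and Havcr2 0.05 with cyclic loess, Lag3 was 0.09 with array weights, and Cd274 was 0.21 and Havcr2 0.10 with Xist above 10. Between tumour kinds, with Xist above 10, Cd4 was 0.03, Cd274 0.04 and Ctla4 -0.07, with cyclic loess Ctla4 was -0.02, and with array weights Klrc1 was 0.62. There Cd8a was -0.06 as the mean of its probe sets, -0.19 by 1444078_at and -0.27 by 1451673_at, and Cd4 was 0.03 by its second probe set. With each array left out, the spontaneous difference of Pdcd1 ran from -0.02 to 0.15. In cobalt tumours Cd274 ran from -0.18 to 0.07, Lag3 from -0.07 to 0.06 and Havcr2 from -0.09 to 0.06. Between tumour kinds Pdcd1 ran from -0.03 to 0.15, Ctla4 from -0.03 to 0.08 and Klrc1 from -0.90 to 0.44. The correlation with Cd3e was 0.10 for Foxp3, 0.19 for Ctla4 and -0.01 for Lag3 without 2 arrays, and 0.05 and 0.02 for Foxp3 and Ctla4 by rank.

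The replicate numbers did not pair the samples (correlations of same-numbered deviations from -0.34 to 0.19, none of 6 arrays closest to its own number), and under a replicate block the Cd3e call in spontaneous tumours was lost (adjusted p = 0.0598). Among arrays with Xist above 10, which include only 2 spontaneous tumours, the Cd8a difference in spontaneous tumours was -0.39 (adjusted p = 0.0728). Cyclic loess moved the median of all genes by at most 0.04. Without the dimmest genes the receptor list held 9 lower genes in spontaneous and 8 in cobalt tumours, and the NK list 2 and 3. This setting takes the dim genes of each list out of the fit. Those counts thus cover fewer than the 26 and 18 genes measured and do not by themselves show calls lost.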
